A study of Mus musculus with 6 samples.

Results

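The genes described here are those of the Hedgehog signal in the embryonic mouse palate: the ligand Shh, the receptor Ptch1, the decoy receptor Hhip, the co-receptors Boc, Cdon and Gas1, and the transcription factors Gli1, Gli2 and Gli3. They were taken by gene symbol from the deposited table, where all 9 were found among 49492 rows. All 9 also passed the filter on low counts, which kept 19284 genes for testing. RNA came from palatal shelves, the paired outgrowths that become the secondary palate, of C57BL embryos at E14.5. The 3 control libraries were PRMT1 fl/fl, so Prmt1 was flanked by loxP sites but intact. The 3 deletion libraries were Wnt1-Cre; PRMT1 fl/fl, the same alleles with a recombinase driven by the Wnt1 promoter, which is active in the precursors of the neural crest. Most palatal mesenchyme descends from the neural crest, while palatal epithelium and skeletal muscle do not. Prmt1 encodes an arginine methyltransferase, and the series asks which genes change when it is lost there. Cre without floxed Prmt1 was not among the groups, so Cre and the deletion cannot be told apart. The labels do not state that the libraries of a group came from separate embryos, so p-values here measure the spread between libraries.

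In the palate, Shh is made by the epithelium and acts mainly on the mesenchyme beneath it. The ligand binds Ptch1 together with Boc, Cdon or Gas1, which releases the membrane protein Smo from inhibition by Ptch1. Smo then acts in the primary cilium to turn Gli2 and Gli3 from repressing into activating forms. As background from other work, Hedgehog signalling raises transcripts of Ptch1, Hhip and Gli1 in many tissues, which makes them common readouts, and it lowers transcripts of Boc, Cdon and Gas1.

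Libraries held 44919889 to 50022829 estimated counts, and each goes by its column's number: the controls are 212, 213 and 220, and the deletion libraries are 208, 211 and 221. Levels are CPM, counts relative to the library total, after scaling between libraries by the trimmed mean of M-values (TMM). Prmt1 was at 246.26 to 257.86 CPM in controls and 200.90 to 217.32 CPM in deletion libraries, so its log2 fold change was -0.27 ± 0.05 (SE), with an edgeR adjusted p = 0.0113. That call was lost with sex as a covariate (-0.24, edgeR adjusted p = 0.177) and without control 213 or deletion 208 or 211 (edgeR adjusted p = 0.0674, 0.0638 and 0.0567). Transcripts from outside the deleted exons and from cells outside the Cre lineage count towards these levels. Summed over 8 genes of palate mesenchyme (Prrx1, Osr2 and others), levels were 1581.3 to 1774.9 CPM in controls and 1673.2 to 1736.4 CPM in deletion libraries. Sums over 4 markers each were 22.9 to 43.3 CPM in controls and 35.2 to 56.6 CPM in deletion libraries for neurons, 304.5 to 312.5 and 274.9 to 303.3 CPM for endothelium, and 47.4 to 55.3 and 41.2 to 47.8 CPM for macrophages. Controls 212 and 213 had 15.48 and 15.96 CPM of Xist, the RNA of the inactive X chromosome, while it was at 3384 to 4487 CPM in control 220 and every deletion library. Embryo sex thus differed between the groups. In the fit with a sex covariate, the fold change compares the deletion libraries with control 220, the only control of their sex, while controls 212 and 213 set the sex term and add to the estimate of spread.

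Of the 9 Hedgehog genes, 2 rose and 2 fell in the deletion libraries. The co-receptors Cdon and Boc rose 1.24-fold and 1.16-fold. The decoy receptor Hhip fell 1.43-fold and the transcription factor Gli1 fell 1.21-fold. Shh, Ptch1, Gli2, Gli3 and Gas1 did not pass the threshold, an adjusted p under 0.05 by edgeR's quasi-likelihood test over all tested genes. By the same rule 1352 of the 19284 tested genes were called, which is 7.01%, with 3.65% higher and 3.37% lower. The median log2 fold change of the 9 Hedgehog genes was 0.02, and that of all tested genes was 0. In 5 of the 9 (Cdon, Boc, Gas1, Gli1 and Hhip) the 2 groups of libraries did not overlap, as in 27.5% of tested genes. With embryo sex as a covariate, a fit that called 0.669% of genes, Gli1 and Cdon passed (edgeR adjusted p = 0.0191 and 0.0492). The 9 genes were chosen with earlier results of these data known, so these counts describe them and support nothing further.

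**Figure D1:**
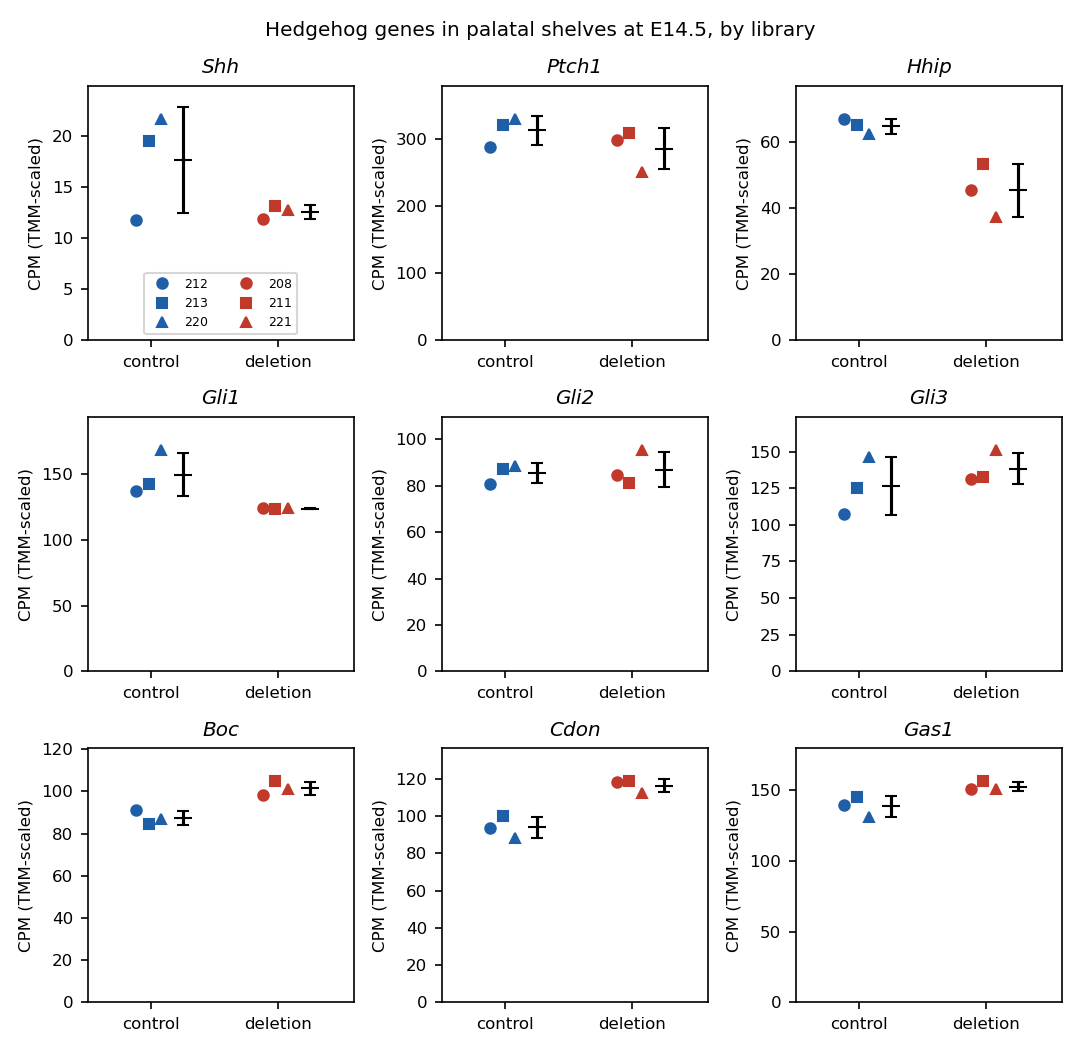
CPM (TMM-scaled, axes from 0) of the 9 Hedgehog genes in each library, blue for control and red for deletion, with mean and SD of 3 libraries in black. Cdon, Boc and Gas1 lie higher and Gli1 and Hhip lower in all 3 deletion libraries than in any control, and the groups overlap for the other 4.

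Hhip encodes a membrane protein that binds Hedgehog ligands and keeps them from Ptch1. It was at 66.74, 65.03 and 62.25 CPM in controls 212, 213 and 220 and at 45.33, 53.26 and 37.17 CPM in deletion libraries 208, 211 and 221. The controls lay close together, the deletion libraries were spread more widely, and the groups did not overlap. The means were 64.7 ± 2.27 and 45.2 ± 8.05 CPM (SD, n = 3 here and below), a log2 fold change of -0.52 ± 0.11 (SE; 95% interval -0.77 to -0.26; edgeR adjusted p = 0.0307). The fall was of like size against either kind of control: the log2 ratio of the deletion mean was -0.46 to control 220 and -0.54 to the mean of controls 212 and 213. With sex as a covariate it did not pass (-0.46, edgeR adjusted p = 0.296), nor did it without control 212, 213 or 220 or deletion 208 (edgeR adjusted p = 0.0985, 0.116, 0.0656 and 0.126).

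Gli1 encodes the Gli factor that acts only as an activator and is itself switched on by the pathway. It measured 137.18, 142.57 and 167.89 CPM in controls 212, 213 and 220 and 124.23, 122.96 and 123.67 CPM in deletion libraries 208, 211 and 221. Every deletion library was below the lowest control, and control 220 stood well above the other controls. The means of 149.2 ± 16.4 and 123.6 ± 0.640 CPM gave a log2 fold change of -0.27 ± 0.07 (SE; 95% interval -0.43 to -0.12; edgeR adjusted p = 0.0441). The size depended on the control: the log2 ratio was -0.44 to control 220 and -0.18 to the mean of controls 212 and 213. Gli1 passed with sex as a covariate (-0.44, edgeR adjusted p = 0.0191). It did not pass with limma voom or without the robust dispersion prior (adjusted p = 0.0674 and 0.0583), or without control 213 or 220 or deletion 208, 211 or 221 (edgeR adjusted p = 0.107, 0.083, 0.133, 0.126 and 0.0738).

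Ptch1, which is both the receptor and the third common readout, did not pass. It was at 287.88, 320.31 and 329.24 CPM in controls 212, 213 and 220 and at 298.24, 308.12 and 250.22 CPM in deletion libraries 208, 211 and 221. The groups overlapped, and deletion 221 alone was below every control. The log2 fold change was -0.13 ± 0.08 (SE; 95% interval -0.31 to 0.05; edgeR adjusted p = 0.395). Among the readouts, Hhip and Gli1 thus passed and Ptch1 did not, and whether their changes differ from that of Ptch1 was not tested.

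Hedgehog signals also act in bone and cartilage. In deletion libraries the summed markers of bone were lower and those of cartilage higher. Of 8 bone markers (Ibsp, Sp7 and others) 1 fell and 0 rose, 7 had deletion libraries below every control, and their summed level was 995.1 to 1409.4 CPM in controls and 263.6 to 471.9 CPM in deletion libraries. The count called was 7 by DESeq2, 5 by limma voom and 0 by edgeR with sex as a covariate. Of 8 cartilage markers (Col2a1, Acan and others) 4 rose and 0 fell, with sums of 364.0 to 532.5 and 781.8 to 895.8 CPM. DESeq2 called 7 of them, limma voom 6 and the sex covariate 3. Acan was not among the 4 (edgeR adjusted p = 0.118). Deletion libraries were above every control for 7 of the 8 and below every control for the eighth, Col11a2 (log2 fold change -0.52, edgeR adjusted p = 0.184). None of the 16 was at 0 in any library. Over all tested genes 3.65% rose, 3.37% fell and 27.5% did not overlap in either direction. Of these 19284 genes DESeq2 called 1088 higher and 1037 lower, limma voom 626 and 545, and the sex covariate 65 and 64. The part of either tissue in the values of Hhip and Gli1 was not tested. In whole shelves, fewer cells of a type and less RNA per cell cannot be told apart.

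Hhip and Ptch1 are shown here by the bases just before their transcription starts, because a readout that fell and a readout that did not pass can be set side by side. Both stretches come from RefSeq promoter windows on GRCm38.p6, the assembly that mm10 names, are written 5′ to 3′ on the gene's own (minus) strand, and have each CG dinucleotide in capitals. Hhip lies at chr8:80058009-80058258 and Ptch1 at chr13:63565736-63565985, the latter upstream of 1 of several annotated Ptch1 starts.

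Hhip: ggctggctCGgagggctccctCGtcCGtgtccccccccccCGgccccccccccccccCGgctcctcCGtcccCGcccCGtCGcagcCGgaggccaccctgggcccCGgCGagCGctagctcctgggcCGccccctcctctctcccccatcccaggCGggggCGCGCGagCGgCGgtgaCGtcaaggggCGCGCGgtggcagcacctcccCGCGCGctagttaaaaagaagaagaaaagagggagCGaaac

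Ptch1: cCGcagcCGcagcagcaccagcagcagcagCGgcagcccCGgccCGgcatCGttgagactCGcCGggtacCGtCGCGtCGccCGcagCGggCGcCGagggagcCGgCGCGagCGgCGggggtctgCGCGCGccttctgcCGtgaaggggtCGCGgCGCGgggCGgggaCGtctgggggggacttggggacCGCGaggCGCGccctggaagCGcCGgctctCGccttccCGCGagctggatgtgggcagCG

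RefSeq windows were found for 6 of the 9 genes (Hhip, Ptch1, Gli2, Gli3, Cdon and Gas1) and not for Shh, Gli1 and Boc. The 300-base windows, which reach from 250 bases before the start to 50 after it, held 30 CG dinucleotides for Hhip, 47 for Ptch1, 39 for Gli3, 28 for Gli2 and 17 for Gas1, against a median of 7 over 32851 windows of all genes. The Cdon window held 3, and it belongs to an alternative start inside the gene. The binding consensus of Gli factors, GACCACCCA, was searched on both strands: it was in none of the 6 windows and in 0.253% of all windows. Its core CACCCA, also searched on both strands and contained in the consensus, was in none of the 6 and in 22.2% of all windows. This says only that these letters are not in these stretches.

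Cdon and Boc encode related membrane proteins of the immunoglobulin superfamily that bind Shh and also act in muscle precursors. Cdon measured 93.70, 99.83 and 88.08 CPM in controls 212, 213 and 220 and 118.17, 118.71 and 112.15 CPM in deletion libraries 208, 211 and 221. All deletion libraries were above all controls, with a gap wider than the range within either group. The means of 93.9 ± 5.88 and 116.3 ± 3.64 CPM gave a log2 fold change of 0.31 ± 0.06 (SE; 95% interval 0.18 to 0.43; edgeR adjusted p = 0.00936), the smallest p of the 9. Cdon passed with each of the 6 libraries left out in turn and with sex as a covariate (0.40, edgeR adjusted p = 0.0492). It did not pass when controls 212 and 213 were both left out (0.40, edgeR adjusted p = 0.088).

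Boc was at 91.12, 84.49 and 86.72 CPM in controls 212, 213 and 220 and at 98.45, 104.84 and 101.15 CPM in deletion libraries 208, 211 and 221. The groups did not overlap. The means were 87.4 ± 3.37 and 101.5 ± 3.21 CPM, with a log2 fold change of 0.21 ± 0.05 (SE; 95% interval 0.10 to 0.33; edgeR adjusted p = 0.0307). The log2 ratio of the deletion mean was 0.23 to control 220 and 0.21 to controls 212 and 213. Its call was lost with sex as a covariate (0.23, edgeR adjusted p = 0.219) and without control 213 or 220 or deletion 208 or 211 (edgeR adjusted p = 0.16, 0.0674, 0.0713 and 0.133).

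Gas1 encodes a co-receptor anchored to the membrane by a lipid and unrelated in sequence to Cdon and Boc. It measured 139.72, 144.98 and 130.74 CPM in controls 212, 213 and 220 and 150.70, 156.33 and 150.59 CPM in deletion libraries 208, 211 and 221. The deletion libraries were above every control, but the log2 fold change of 0.14 ± 0.05 (SE; 95% interval 0.02 to 0.26) did not pass (edgeR adjusted p = 0.149). The 3 co-receptors had the most similar profiles among the 9 genes: after each gene's log2 CPM was centred on its own mean over the 6 libraries, the root mean square difference was 0.071 between Boc and Gas1, 0.089 between Cdon and Gas1 and 0.091 between Boc and Cdon. The profiles farthest apart were those of Shh and Cdon, at 0.473. This measure is small between genes that each vary little, so the distances are a description only.

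Skeletal muscle markers were also higher in deletion libraries. Of 8 (Myog, Myod1 and others) 6 rose and 0 fell, and all 8 had deletion libraries above every control. Over all tested genes 3.65% rose and 27.5% did not overlap in either direction. DESeq2 and limma voom each called 8 of the markers, and edgeR with sex as a covariate 4. Over all 19284 tested genes these fits called 1088, 626 and 65 higher. The muscle sum was 398.7 to 445.4 CPM in controls and 888.4, 1145.0 and 726.9 CPM in deletion libraries 208, 211 and 221. Deletion 211 was the highest of the deletion libraries for the muscle sum and for Cdon, Boc and Gas1 alike. For Cdon it was close to deletion 208 (118.71 and 118.17 CPM). Among controls, 220 had the highest muscle sum (445.4 CPM) but the lowest Cdon and Gas1. Control 213 had the lowest muscle sum and the lowest Boc, but the highest Cdon and Gas1. None of the 8 markers was at 0 in any library, and the part of muscle in the rise of Cdon and Boc was not tested.

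**Figure D2:**
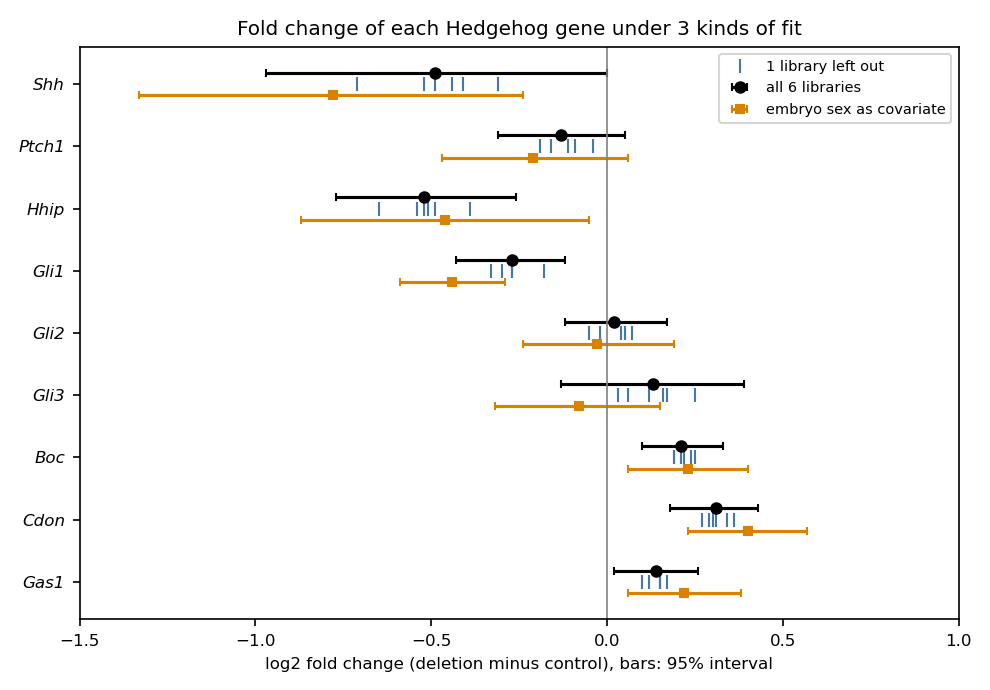
Log2 fold change (deletion minus control, horizontal axis) of each Hedgehog gene. Black points are the fit of all 6 libraries and orange squares the fit with embryo sex as covariate, both with 95% intervals, and blue ticks are fits with 1 library left out. All estimates for Cdon, Boc and Gas1 lie above 0 and all for Shh, Ptch1, Hhip and Gli1 below it, while those for Gli2 and Gli3 fall on both sides.

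Shh, the ligand, was the least abundant of the 9 and varied most among controls. It measured 11.80, 19.50 and 21.63 CPM in controls 212, 213 and 220 and 11.83, 13.19 and 12.72 CPM in deletion libraries 208, 211 and 221. Controls 213 and 220 were above every deletion library, and control 212 was as low as the lowest of them. The means were 17.6 ± 5.17 and 12.6 ± 0.690 CPM, with a log2 fold change of -0.49 ± 0.21 (SE; 95% interval -0.97 to 0; edgeR adjusted p = 0.222). Without control 212 the log2 fold change was -0.71 and passed (edgeR adjusted p = 0.00505). The log2 ratio of the deletion mean was -0.78 to control 220 and -0.31 to the mean of controls 212 and 213.

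Shh is made by epithelium, whose summed markers were lower in deletion libraries. Of 16 markers (Krt14, Epcam and others) 7 fell and 0 rose, and 12 had deletion libraries below every control. Over all tested genes 3.37% fell and 27.5% did not overlap in either direction. DESeq2 and limma voom each called 8 of the markers, and edgeR with sex as a covariate 3. Over all 19284 tested genes these fits called 1037, 545 and 64 lower. The epithelial sum was 1910.2, 1835.3 and 1680.8 CPM in controls 212, 213 and 220. In deletion libraries 208, 211 and 221 it was 1161.2, 1248.9 and 1442.9 CPM. Per 1000 CPM of these markers, Shh was at 6.18, 10.63 and 12.87 CPM in controls and at 10.19, 10.56 and 8.82 CPM in deletion libraries. The log2 ratio of Shh to the sum was -6.72 ± 0.55 in controls and -6.67 ± 0.14 in deletion libraries, a difference of 0.06 (exact permutation test, two-sided p = 1, where 3 against 3 libraries cannot go below 0.1). Without control 212 the difference was -0.25 (exact permutation p = 0.2), and every deletion ratio was below those of controls 213 and 220. The part of epithelium in the values of Shh was not tested.

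Within the oral tissues Shh is also a gene of the tooth germ, and tooth germ markers varied between libraries of the same group. Of 5 (Sp6, Lef1 and others) none passed by edgeR or limma voom, 1 passed by DESeq2, and 1 had an unadjusted edgeR p under 0.05. Over all tested genes edgeR called 7.01%, DESeq2 1088 higher and 1037 lower, and limma voom 626 and 545. Shh, at an unadjusted edgeR p of 0.0498, ranked 4335 by p among 19284 tested genes. The sum of the 5 markers was 28.4, 71.2 and 120.1 CPM in controls 212, 213 and 220. In deletion libraries 208, 211 and 221 it was 43.9, 41.9 and 95.6 CPM. Sp6, an epithelial factor of the developing tooth, was at 2.07, 14.53 and 24.75 CPM in controls and at 2.12, 2.76 and 5.74 CPM in deletion libraries. Fgf4, a growth factor of the tooth's enamel knot, was at 0.30, 1.74 and 5.43 CPM in controls and 0.74 to 1.01 CPM in deletion libraries. Control 212 was thus the lowest control for Shh, Sp6 and Fgf4 and control 220 the highest, as also for Lef1, Dlx2 and Ambn. In deletion 221, where Shh was at 12.72 CPM, Lef1 was at 36.36 CPM, above every control. Dlx2 there was at 49.29 CPM, against 55.01 CPM in control 220. Ambn was at 2.23 to 3.44 CPM in deletion libraries. How much tooth tissue each dissection held, and its part in the values of Shh, was not tested.

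**Figure D3:**
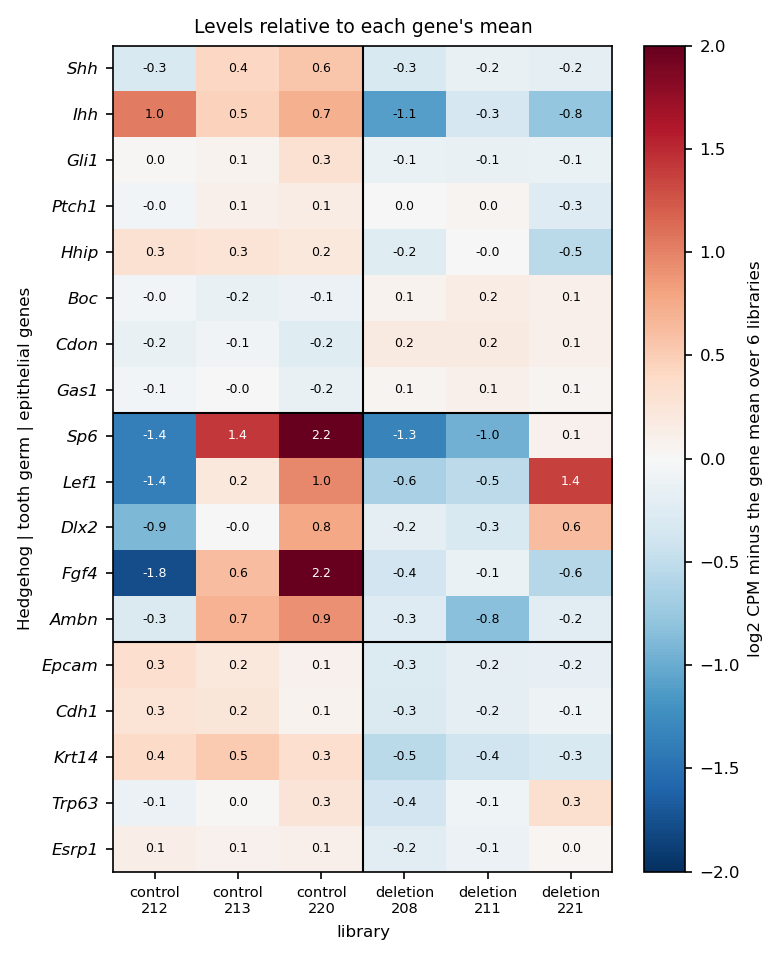
Log2 CPM of each gene minus its mean over the 6 libraries (color, and printed in each cell) for Hedgehog, tooth germ and epithelial genes, with libraries in columns. Control 212 is below the mean for Shh, Sp6 and Fgf4 and controls 213 and 220 are above it, while Epcam, Cdh1 and Krt14 are above the mean in all 3 controls.

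Gli2 and Gli3, which carry the signal into the nucleus and are not themselves common readouts, did not pass. Gli2 was at 80.67, 87.06 and 88.70 CPM in controls 212, 213 and 220 and at 84.49, 81.07 and 95.30 CPM in deletion libraries 208, 211 and 221. Its log2 fold change was 0.02 (95% interval -0.12 to 0.17, edgeR adjusted p = 0.879). Gli3, the main repressor of the pathway, was at 107.63, 125.23 and 146.59 CPM in controls and at 131.38, 132.93 and 150.91 CPM in deletion libraries (0.13, 95% interval -0.13 to 0.39, edgeR adjusted p = 0.563). The groups overlapped for both. Neither direction was stable, since a sex covariate turned the log2 fold change to -0.03 for Gli2 and -0.08 for Gli3, and leaving out control 212 or deletion 221 turned that of Gli2 to -0.02 or -0.05.

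Levels of different genes were compared per kilobase of exon. In controls the order was Gas1 (46.8 ± 2.43 CPM per kb), Gli1 (29.9 ± 3.28), Ptch1 (22.0 ± 1.53), Boc (19.6 ± 0.758), Gli3 (13.2 ± 2.03), Gli2 (12.4 ± 0.618), Cdon (12.2 ± 0.762), Hhip (7.13 ± 0.250) and Shh (6.20 ± 1.82). Gli3, Gli2 and Cdon did not differ beyond their SD, and neither did Hhip and Shh. In deletion libraries the order was Gas1 (51.5 ± 1.11 CPM per kb), Gli1 (24.8 ± 0.128), Boc (22.8 ± 0.721), Ptch1 (20.1 ± 2.18), Cdon (15.1 ± 0.472), Gli3 (14.4 ± 1.13), Gli2 (12.7 ± 1.08), Hhip (4.99 ± 0.887) and Shh (4.42 ± 0.242). There the ranges of mean ± SD overlapped between Boc and Ptch1, Cdon and Gli3, Gli3 and Gli2, and Hhip and Shh. These lengths join all annotated exons of a gene (2.847 kb for Shh, 14.185 kb for Ptch1), so a gene that uses few of them in this tissue has too low a value.

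In mm10, with GENCODE M21 annotation, Shh spans 28456815 to 28467256 of chromosome 5, Gli1 127329882 to 127341974 of chromosome 10, Hhip 79965851 to 80058006 of chromosome 8, Boc 44485049 to 44558897 of chromosome 16 and Gas1 60174405 to 60177365 of chromosome 13, all on the minus strand. Also on the minus strand are Ptch1, from 63508328 to 63573598 of chromosome 13, and Gli2, from 118834132 to 119053619 of chromosome 1. On the plus strand Cdon spans 35421128 to 35507652 of chromosome 9 and Gli3 15463235 to 15730026 of chromosome 13. Exons of genes on the opposite strand overlap those of Shh, Gli1, Gli3, Hhip and Gas1. Without a stated strand setting, reads from such a pair cannot be separated. The overlapping partners found in the table were low beside the Hedgehog gene. Shh had 569.9 to 983.2 counts against at most 34.8 for Gm26894, Gli1 5540 or more against at most 81 for Arhgap9, and Gli3 5417.4 or more against at most 286.3 for Gm6556.

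The rest of the pathway was read from 4 lists. Among 10 tested genes of other ligands and of ligand release, 0 rose and 1 fell (median log2 fold change 0.17), against 3.65% and 3.37% of all tested genes. That 1 was Ihh, the ligand of prehypertrophic chondrocytes, at 7.81, 5.21 and 6.20 CPM in controls 212, 213 and 220 and 1.74, 3.00 and 2.21 CPM in deletion libraries 208, 211 and 221. The groups were well apart, and Ihh fell by 1.47 ± 0.22 (SE) on the log2 scale (edgeR adjusted p = 0.00428). Ihh passed with each of the 6 libraries left out in turn, and not with sex as a covariate (-1.42, edgeR adjusted p = 0.0823). Disp2, a relative of the ligand-releasing protein Disp1, was at 0.702 ± 0.381 and 2.11 ± 0.896 CPM and did not pass (1.59 on the log2 scale, edgeR adjusted p = 0.0584). Scube1, a secreted protein whose family helps to release Shh, was at 50.2 ± 13.0 and 80.0 ± 5.90 CPM (0.67, edgeR adjusted p = 0.113). Scube1 passed by DESeq2, limma voom and edgeR with robust=FALSE (adjusted p = 0.031, 0.0256 and 0.0325) and without control 220 (0.89, edgeR adjusted p = 0.000943), and with sex as a covariate its log2 fold change was 0.31. Disp2 passed by DESeq2, without the filter, and without control 220 or deletion 221 (adjusted p = 0.0057, 0.0218, 0.0215 and 0.0175).

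Of 15 tested genes of reception and transduction, 0 rose and 0 fell by edgeR, also by DESeq2 and limma voom. Over all tested genes edgeR called 7.01%, DESeq2 1088 higher and 1037 lower, and limma voom 626 and 545. Of the 15, 2 had an unadjusted edgeR p under 0.05. Shh, at an unadjusted edgeR p of 0.0498, ranked 4335 by p among 19284 tested genes. The log2 fold changes of the 15 lay between -0.13 and 0.17. Smo, the transducer that Ptch1 restrains, was at 272.5 ± 1.57 and 281.9 ± 6.69 CPM, a change of 0.05 (95% interval -0.06 to 0.16). The 2 of smallest p were Csnk1a1, a casein kinase that phosphorylates Gli proteins (0.17, edgeR adjusted p = 0.128), and Evc2, a protein at the base of the cilium (-0.13, edgeR adjusted p = 0.221).

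Of 15 tested genes of the primary cilium, where Smo acts, 0 rose and 2 fell (median log2 fold change -0.10), 7 had deletion libraries below every control and 1 had them above. Over all tested genes 7.01% were called and 27.5% did not overlap, in either direction. Rpgrip1l went from 44.2 ± 0.400 to 36.4 ± 2.09 CPM (-0.28 ± 0.06 SE, edgeR adjusted p = 0.0248) and Mks1 from 18.2 ± 0.407 to 14.4 ± 1.38 CPM (-0.34 ± 0.09 SE, edgeR adjusted p = 0.0496). Both proteins belong to the transition zone, the gate at the base of the cilium, as does Tctn1, which did not pass (-0.25, edgeR adjusted p = 0.0754). Efcab7, which tethers the Evc proteins, also did not (-0.45, edgeR adjusted p = 0.151). Rpgrip1l was lost without control 212 or 213 or deletion 208, and Mks1 passed with 1 library left out only where that library was deletion 221. Mks1 was also lost with limma voom and robust=FALSE (adjusted p = 0.0583 and 0.0562). Tctn1 passed by DESeq2, without the filter, and without control 220 or deletion 221 (adjusted p = 0.0384 to 0.0428).

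Among 14 tested genes reported elsewhere to respond to Hedgehog, 3 rose and 1 fell, against 3.65% and 3.37% of all tested genes. The median log2 fold change of the 14 was -0.02. Those that rose were forkhead factors: Foxd1 from 37.0 ± 5.87 to 54.9 ± 3.67 CPM (1.49-fold, edgeR adjusted p = 0.015), Foxd2 1.42-fold (edgeR adjusted p = 0.0382) and Foxc2 1.78-fold (edgeR adjusted p = 0.0402). Ccnd1, the cyclin of early G1, fell from 213.7 ± 2.10 to 171.0 ± 15.1 CPM (1.25-fold, edgeR adjusted p = 0.0139). Its relative Ccnd2 was at 784.3 ± 76.9 and 648.6 ± 38.0 CPM and did not pass (-0.27 on the log2 scale, edgeR adjusted p = 0.0546), nor did the palatal factor Osr2 (0.15, edgeR adjusted p = 0.22). Foxf1 and Foxf2, forkhead factors that depend on Shh in the palate, had log2 fold changes of -0.06 and -0.11 (edgeR adjusted p = 0.838 and 0.34). Without 1 library, Foxd1 did not pass where that was deletion 208, Foxd2 where it was control 213 or 220 or deletion 208 or 211, and Ccnd1 where it was control 213 or deletion 208 (edgeR adjusted p = 0.0531 to 0.178). Of these fits Foxc2 passed only in that without control 212 (edgeR adjusted p = 0.004). Foxd2 was also lost with limma voom (adjusted p = 0.0573). Ccnd2 passed with upper-quartile factors, by DESeq2, without the filter, and without control 212 or deletion 221 (adjusted p = 0.00676 to 0.0435). With sex as a covariate none of the 4 lists held a call by edgeR.

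**Figure D4:**
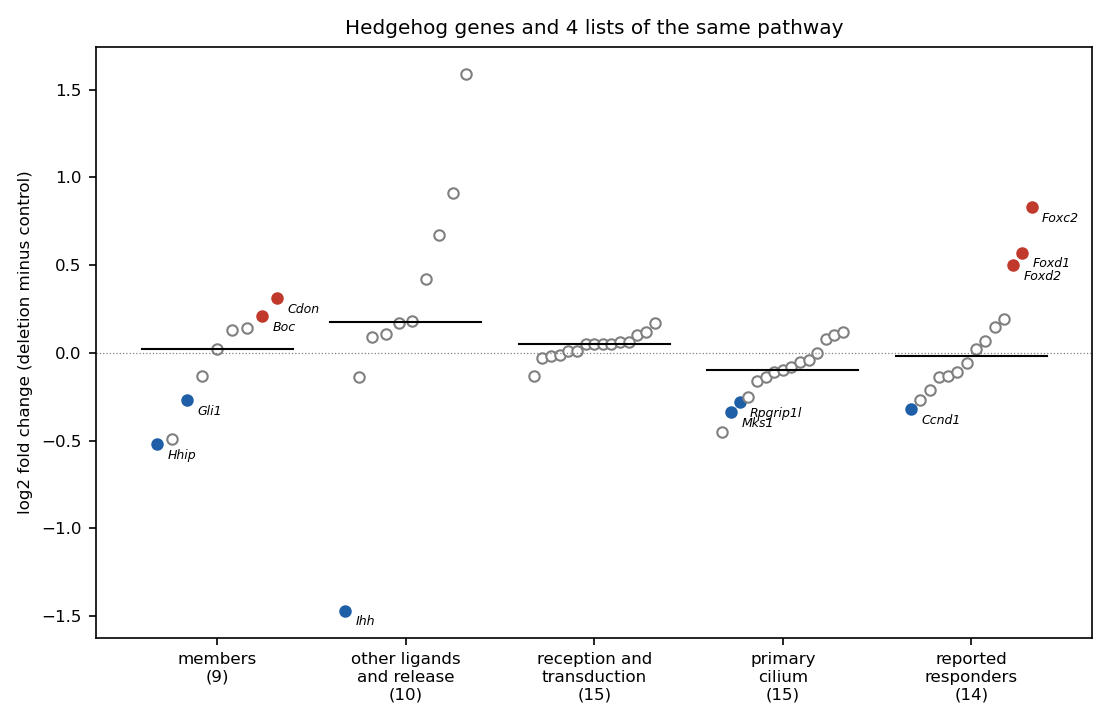
Log2 fold change (deletion minus control) of the 9 Hedgehog genes and of 4 lists of the same pathway, with the number tested in brackets. Filled red or blue points rose or fell past the threshold and are named, open points did not pass, and bars are medians. Reception and transduction genes lie between -0.13 and 0.17, and Ihh is lowest at -1.47.

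Genes with the most similar profiles were sought for Shh and Gli1 among 14581 other genes with a mean log2 CPM of 1 or more. For Shh the nearest were Hs3st6, Wscd1, Pcdhga8, St3gal6 and Mnd1-ps, at root mean square differences of 0.090 to 0.117 on the log2 scale over the 6 libraries. Hs3st6 was at 3.83, 6.10 and 6.91 CPM in controls 212, 213 and 220 and 3.52, 4.12 and 4.64 CPM in deletion libraries 208, 211 and 221, and so shared with Shh the low value in control 212. For Gli1 the nearest were Olfml2b, Rsrc1, Gpr19, Smc1a and Kif15, at 0.032 to 0.042. Olfml2b was at 37.41, 41.51 and 46.91 CPM in controls and at 34.10, 34.60 and 35.20 CPM in deletion libraries, with control 220 highest, as for Gli1. With 6 libraries in 2 groups such likeness is a description only.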

How the data were processed

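The table deposited by the authors holds estimated counts (expected counts) per gene symbol for 6 poly(A) RNA libraries, not scaled between libraries: totals differ and 23.0% to 23.8% of values are not whole. Tools were STAR 2.4.1d, CASAVA 1.8.2 and Partek, whose version is not listed, with build mm10, per the submitters' processing notes. The counter, annotation, strand setting and filters were not given in the sources used here. Column names give the group but no replicate number of the labels, and 0 columns were left without a group.

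Counts were rounded, filtered by filterByExpr (minimum count 10, minimum total 15), scaled by TMM and tested with edgeR 4.0.16's quasi-likelihood F test (robust=TRUE, no covariates, all 6 libraries, R 4.3.3), with Benjamini-Hochberg adjustment over 19284 genes and a threshold of 0.05. Each SE is the log2 fold change over the root of F, and intervals are at 95%. The procedure was tested on simulated data. Exon lengths come from GENCODE M21 and promoters from RefSeq. Libraries of a group differed by more than sampling noise (7.79 to 37.96 chi-square units per degree of freedom). The 9 genes, the lists and the tests were chosen with earlier results of these data known. Named were the 9 genes, and per list every pathway gene past the threshold and the 2 of smallest p that were not. The 5 nearest profiles of Shh and of Gli1 were named too, with Prmt1 and Xist as checks. Of each list of other cell types used the first 2 reported markers were named, except for neurons, endothelium and macrophages, given as sums only. Smo, Foxf1, Foxf2, Lef1, Dlx2, Ambn, Fgf4, Col11a2, Mepe and Cdh1 are named besides, after their values were seen. Alternatives were DESeq2 size factors or upper-quartile factors in edgeR, DESeq2 1.42.0, limma 3.58.1 voom, no filter, a CPM filter (1 or more in 3 libraries), robust=FALSE, embryo sex as covariate, and leaving out libraries. Some genes of the lists are not reported here and were left out of the lists' counts and sums.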

Additional observations from a re-analysis of the deposited data

How the results depend on the processing

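All 15 alternatives kept the direction of Shh, Ptch1, Gli1, Hhip, Boc, Cdon and Gas1, and calls of Cdon were kept in 14 of 15, of Hhip and Boc in 9 and of Gli1 in 8. No paired analysis was possible because the column names carry none of the labels' replicate numbers. Causes of the shifts below were not tested, beyond the loss of libraries by construction. With embryo sex as covariate, log2 fold changes were -0.46 for Hhip and 0.23 for Boc (no longer called), -0.03 for Gli2 and -0.08 for Gli3 (reversed). 1 Hedgehog gene was higher and 1 lower, 0 and 0 other pathway genes were called, and over all genes 65 were higher and 64 lower. Leaving out both low-Xist controls gave -0.46 for Hhip, 0.23 for Boc and 0.40 for Cdon (no longer called), -0.03 for Gli2 and -0.08 for Gli3 (reversed), with 0 Hedgehog genes higher and 1 lower, 0 and 0 other pathway genes, and 44 higher and 45 lower over all genes. Gli1 was lost with limma voom (-0.26) and robust=FALSE (-0.27), leaving 1 lower Hedgehog gene in each. DESeq2's Wald test called 1088 higher and 1037 lower genes, against 703 and 649, and 5 other pathway genes higher, against 3. With 1 library left out, log2 fold changes ranged from -0.71 to -0.31 for Shh, -0.19 to -0.04 for Ptch1, -0.33 to -0.18 for Gli1, -0.05 to 0.07 for Gli2 (-0.02 without control 212 and -0.05 without deletion 221, both reversed), 0.03 to 0.25 for Gli3, -0.65 to -0.39 for Hhip, 0.19 to 0.25 for Boc, 0.27 to 0.36 for Cdon and 0.10 to 0.17 for Gas1. Called Hedgehog genes ranged from 1 to 2 higher and 0 to 2 lower, other pathway genes from 0 to 4 higher and 1 to 7 lower, and all genes from 198 to 1047 higher (198 without control 213, 299 without deletion 208, 399 without deletion 211) and 158 to 825 lower (158, 246 and 312). The difference in the log2 ratio of Shh to epithelial markers, 0.06, was -0.04 with Epcam and Cdh1 only and -0.06 without keratins, and ranged from -0.25 to 0.28 with 1 library left out. Depth was not limiting for 8 of the 9 genes, at 1665 counts or more in each library; Shh had 569.9 or more, a counting error of up to 4.19%.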

Other observations

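The spread among libraries differed from gene to gene. For Gli1 the coefficient of variation was 0.518% in deletion libraries and 11.0% in controls, with a counting error of up to 1.34% of a library's value. Hhip showed the opposite order, 17.8% in deletion libraries and 3.51% in controls, with a counting error of up to 2.45%. For Shh the values were 5.48% in deletion libraries and 29.3% in controls. With 3 libraries a group, whether the spread differs between the groups was not tested.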
